A study of Mus musculus with 6 samples.

Results

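The 9 genes described here encode the Lgr receptors Lgr4, Lgr5 and Lgr6, the R-spondins Rspo1, Rspo2, Rspo3 and Rspo4, and the membrane E3 ubiquitin ligases Rnf43 and Znrf3. They were found by their symbols among the 36163 names and 55681 probes of the array, and 10 probes carried one of them, with a pair of probes for Lgr6 and a single probe for each other gene. RNA came from cells sorted from the prostates of 6-day-old male FVB/N transgenic 11.5kb-GFP mice, in which the s-SHIP promoter, the promoter inside the SHIP1 gene that is active in stem cells, drives GFP. All cells were negative for the lineage markers Ter119, CD31 and CD45 and positive for CD49f and Sca-1, the LSC gate of basal and stem cells. They were parted into LSC GFP+ cells, in which the promoter was active, and LSC GFP- cells, with 3 independent samples and 3 arrays each. Every mouse carried the transgene and none was treated, so the groups were parted by GFP alone. Vascular smooth muscle cells of these mice carry GFP as well, at a higher level, but by the study's account with little or no Sca-1 and CD49f, which would keep them out of the LSC gate. How many animals went into a sample is not given in the sources used here. The question of the comparison was which transcripts set the presumptive stem cells apart from other basal cells.

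R-spondins are secreted proteins that strengthen Wnt signaling. They bind an Lgr receptor on the cell surface and with it take hold of Rnf43 or Znrf3, which are then cleared from the membrane. In their absence these ligases mark Frizzled, the Wnt receptor, for internalization and breakdown. Rnf43 and Znrf3 are themselves target genes of Wnt/β-catenin signaling, so that the pathway restrains itself. Lgr5 is best known from the stem cells of the intestine and the hair follicle, Lgr6 from stem cells of the skin, and Lgr4 is more widely expressed and is needed for normal development of the prostate.

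Each gene was measured through a 60-base probe, and the 7 probes with a usable signal are shown by their first 30 bases, 5′ to 3′, because a result on this array is a result on these stretches. The positions, on mm9, were taken from the array design.
Lgr4, chr2:109853567-109853626: gctctgacatttccaaatttgttgaagtta
Lgr5, chr10:114887403-114887462: catgtaaatacgtagtgcttgtaaatagat
Lgr6, brighter probe, chr1:136880538-136880597: gtctctgttctacatatttggatctgacaa
Lgr6, dimmer probe, chr1:136883782-136883841: tggagaagagctcctgcgactccacccaag
Rspo3, chr10:29172930-29172989: ggatactactttctaacaaggtgtatctag
Rnf43, chr11:87548958-87549017: ctgaaccagacagaaagatgcttgaatcag
Znrf3, chr11:5180918-5180977: actccactggagtctaggcacaacccggga
Lgr4 and Rnf43 lie on the plus strand and the other genes on the minus strand. The array design names a RefSeq mRNA as the target of each of these probes except the brighter Lgr6 probe. That probe was taken as designed on cDNA clone records, and no RefSeq mRNA is among its targets. No table of exons of this build was used, so it is not stated whether a probe lies in coding or untranslated sequence.

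Lgr4, Lgr5 and both E3 ligases were higher in LSC GFP+ than in LSC GFP- cells, by 1.49-fold to 1.91-fold, whereas Rspo3 was 3.05-fold lower. Lgr6 was 2.31-fold higher at the brighter of its probes, did not differ beyond the replicate spread at the other, and was not called when both were averaged. Rspo1, Rspo2 and Rspo4 were not well above background on any array. A gene was called where limma's moderated test gave an unadjusted p below the study's threshold of 0.05. The test was run on log2 signals set relative to the 75th percentile of each array, so that a probe at that percentile has a log2 signal of 0. Probes entered the test if the scanner software found them well above background in every sample of one population or the other, and 7 of the 10 probes and 6 of the 9 genes entered it. Of the 9 genes 5 were called higher, where 3.38% of all 25616 genes tested at their brightest probe were, and 1 was called lower, where 4.29% were. The count of 5 takes Lgr6 at its brighter probe and is 4 with the mean over its probes. The brighter probe is the one with the higher mean signal over all 6 arrays. It was the dimmer one on every LSC GFP- array, so the choice of this probe was not independent of its direction. None of the 9 passed 0.05 after Benjamini-Hochberg adjustment over all 37008 probes tested, and a single probe of the whole array, 0.0027%, did. Counted by probes, 3.38% of the array was called higher, 4.53% lower and 7.9% in either direction. With the replicate number as a block these shares were 6.74% higher and 8.07% lower, and the same 6 genes were called. Rspo3 passed the filter only through LSC GFP- cells, where it was high, so its place among the tested genes was not independent of its direction.

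**Figure D1:**
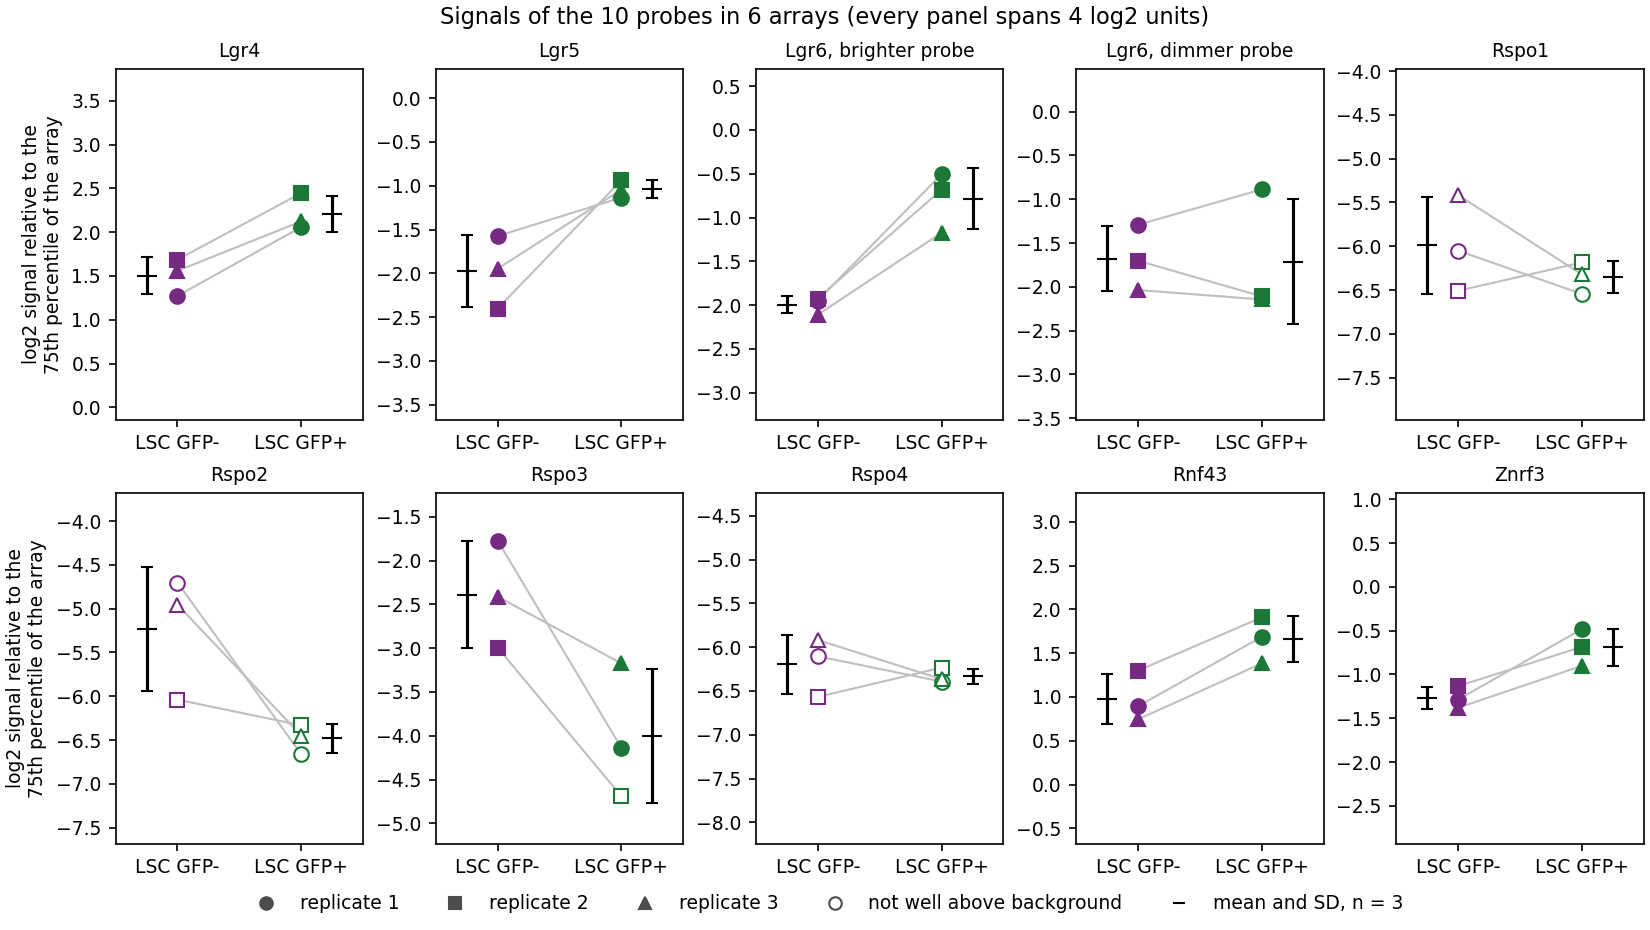
Log2 signal relative to the 75th percentile of the array (y axis) for all 10 probes in LSC GFP- and LSC GFP+ samples (x axis), with a symbol for each replicate number, grey lines joining samples of the same number, open symbols for spots not well above background, and the mean and SD of 3 samples beside the points. Lgr4, Lgr5, the brighter Lgr6 probe, Rnf43 and Znrf3 lay higher in all 3 LSC GFP+ samples, Rspo3 lay lower, and Rspo1, Rspo2 and Rspo4 were at background.

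The 6 arrays came from a single slide and scan, with 65.8% to 75.7% of probes well above background, no saturated spot, and no member spot marked as an outlier. All 8 basal markers, among them Krt5, Krt14 and Trp63, were measured on every array, as were the luminal keratins Krt8, Krt18 and Krt19, so that these RNAs held transcripts of both kinds. The summed signal of the basal markers is given relative to the 75th percentile of the array. It was 213.8 to 233.4 in LSC GFP+ and 157.8 to 171.3 in LSC GFP- samples. Of these markers 5, Krt5, Krt14, Krt15, Krt17 and Col17a1, were called higher. At their brightest probes Trp63, Itgb4 and Dst differed by 0.11, 0.13 and 0.067 on the log2 scale and were not called. Trp63 had 3 tested probes and Dst 2, and their dimmer probes are not given here. The study, from these arrays, counts Trp63 with Krt5 and Krt14 among the basal transcripts enriched in LSC GFP+ cells. Of the sorting markers, Itga6, which encodes CD49f, had a log2 difference of 0.25 and Ly6a, which encodes Sca-1, one of -0.36, neither of them called. The SHIP1 gene Inpp5d had no probe that passed the filter. The part of the basal markers in the differences below was not tested, and in RNA from many cells fewer cells of a type and less RNA per cell cannot be told apart.

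Lgr4, a receptor that binds all R-spondins, had log2 signals of 2.06, 2.45 and 2.12 in LSC GFP+ replicates 1, 2 and 3 and of 1.27, 1.69 and 1.56 in LSC GFP- replicates 1, 2 and 3. The lowest LSC GFP+ sample thus lay above the highest LSC GFP- sample, and each sample exceeded the one with the same replicate number, by 0.57 to 0.79. Lgr4 was 1.63-fold higher in LSC GFP+ cells (log2 difference 0.70, standard error 0.21, 95% confidence interval 0.21 to 1.20, unadjusted p = 0.0108 and adjusted p = 0.350 from limma). The difference was 0.59 without LSC GFP- replicate 1, where it no longer passed the threshold. Of all probes tested, 97.7% had a lower difference than Lgr4.

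Lgr5 was measured at -1.13, -0.94 and -1.04 on the log2 scale in the LSC GFP+ samples and at -1.57, -2.40 and -1.95 in the LSC GFP- samples. The LSC GFP+ samples lay close together, with an SD of 0.10, and those of LSC GFP- cells were spread more widely, with an SD of 0.42, replicate 2 being the lowest. The populations did not overlap and the differences between samples of the same number ranged from 0.44 to 1.47. Lgr5 was 1.91-fold higher (log2 difference 0.94, standard error 0.25, 95% confidence interval 0.36 to 1.51, unadjusted p = 0.00549 and adjusted p = 0.273 from limma). This call held when any of the 6 arrays was left out. With another correction of the background, normexp with an offset of 50, the log2 difference was 0.57, still called. The study named Lgr5 and Lgr6 from these same arrays, so these are no independent evidence of their direction.

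The pair of Lgr6 probes, 3244 bases apart on chromosome 1, gave different results. The brighter probe had log2 signals of -0.50, -0.68 and -1.17 in the LSC GFP+ samples and of -1.95, -1.93 and -2.11 in the LSC GFP- samples. All LSC GFP+ samples were higher, by at least 0.94 within a replicate number, and the LSC GFP- samples were nearly level, with an SD of 0.10. Lgr6 at this probe was 2.31-fold higher (log2 difference 1.21, standard error 0.23, 95% confidence interval 0.68 to 1.74, unadjusted p = 0.000786 and adjusted p = 0.133 from limma), rank 177 from the top among the probes tested and the largest increase of the 7 member probes tested. The call held under every alternative at this probe and without any of the arrays.

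The dimmer Lgr6 probe, the one designed on the RefSeq mRNA, had log2 signals of -0.89, -2.11 and -2.14 in the LSC GFP+ samples and of -1.29, -1.70 and -2.04 in the LSC GFP- samples. The populations overlapped, with LSC GFP+ replicate 1 as the highest and LSC GFP+ replicates 2 and 3 as the lowest samples, all of them well above background. The log2 difference was -0.037 (standard error 0.37, 95% confidence interval -0.90 to 0.83, unadjusted p = 0.924), so that a difference of the size seen at Lgr4 or Rnf43 lies within the interval but that of the brighter probe does not. Quantile normalization, at 0.036, and scaling by the array median, at 0.032, turned its sign. Without LSC GFP+ replicate 1 it was -0.45.

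The difference in signal between the brighter and the dimmer Lgr6 probe within an array was 0.38, 1.43 and 0.97 on the log2 scale in LSC GFP+ and -0.65, -0.22 and -0.073 in LSC GFP- replicates 1, 2 and 3. The probe called brighter was thus the brighter one on every LSC GFP+ array and the dimmer one on every LSC GFP- array. The change of one probe exceeded that of the other by 1.24. An exact permutation test over samples gave p = 0.1. This is the smallest p that 3 samples against 3 can give, so the test cannot decide whether the probes differ in their change. The mean over both probes was 0.59 higher in LSC GFP+ cells (standard error 0.28) with an unadjusted p of 0.0710 in limma's test, not a call. The direction of Lgr6 as a gene therefore rested on the probe designed on cDNA clones, and whether these clones are transcripts of Lgr6 was not checked.

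Rspo3, a secreted ligand known as a product of mesenchymal and smooth muscle cells in many organs, was the single R-spondin with a signal above background. Its log2 signals were -4.14, -4.69 and -3.17 in the LSC GFP+ samples and -1.77, -2.99 and -2.41 in the LSC GFP- samples. On the linear scale of the scanner these were 22.6, 19.2 and 45.7 against 117.2, 51.2 and 79.1 units. Every LSC GFP- sample was higher than every LSC GFP+ sample, and LSC GFP+ replicate 2 was not well above background. Rspo3 fell by 1.61 on the log2 scale in LSC GFP+ cells, a 3.05-fold decrease (standard error 0.44, 95% confidence interval -2.63 to -0.59, unadjusted p = 0.00657 and adjusted p = 0.298 from limma), and 0.670% of the probes tested had a lower difference. The call held without any single array, with differences between -2.02 and -1.26. Under normexp background correction the difference was -0.76, still called.

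Most stromal and smooth muscle markers, of cell types that the LSC gate should largely remove, were lower in LSC GFP+ cells, as Rspo3 was. The smooth muscle markers Acta2, Myh11, Tagln, Cnn1, Des and Actg2, 6 of 6, were called lower in LSC GFP+ cells. Their median log2 difference was -1.73, and Acta2, which encodes smooth muscle actin, fell by 2.13. Their summed signal was 6.21 to 10.0 times the 75th percentile of the array in LSC GFP+ and 19.6 to 37.7 times in LSC GFP- samples. Of 8 fibroblast and mesenchyme markers, 7 were measured and Dpt was not, and Col1a1, Col1a2, Col3a1, Lum and Pdgfra were called lower, Dcn was called higher and Vim, at -0.80, was not called. Pdgfra passed the filter only through LSC GFP- cells, where it was high, since it was well above background on 2 of the 3 LSC GFP+ arrays. The median over these 7 was -1.97 and their summed signal was 18.6 to 24.9 in LSC GFP+ and 20.9 to 58.9 in LSC GFP- samples. In LSC GFP+ samples this linear sum was weighted most by Dcn, the gene called higher, at a mean log2 signal of 3.70. Col1a2 came next there, at 1.71. The highest value of Rspo3 and of both marker sums was that of LSC GFP- replicate 1. The lowest LSC GFP- value of all 3 was that of replicate 2. Within LSC GFP+ samples the orders differed. Rspo3 and the fibroblast sum were highest in replicate 3, and the smooth muscle sum in replicate 1. Rspo3 and the smooth muscle sum were lowest in replicate 2, and the fibroblast sum in replicate 1. The part of these markers in the decrease of Rspo3 was not tested. Of the other cell types, none of the measured endothelial (3 of 5 genes), immune (4 of 5) and neuronal and glial (4 of 6) markers was called. With the replicate number as a block, Tubb3, at -1.30, and Sox10, at -0.66, both of the neuronal and glial list, were called lower (unadjusted p = 0.00117 and 0.0257 from limma), and all 4 measured genes of that list had negative differences, with a median of -0.52. The luminal keratins Krt8, Krt18 and Krt19 had log2 differences of -0.30, -0.22 and -0.24 and were not called.

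**Figure D2:**
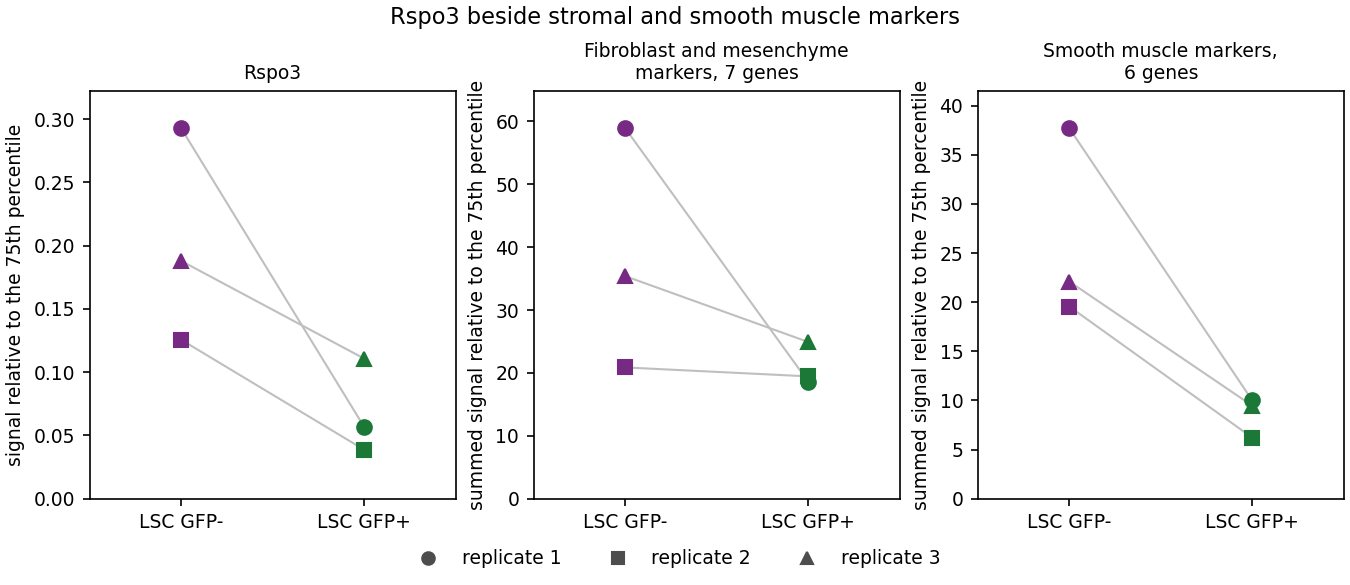
Signal of Rspo3 and summed signals of 7 fibroblast and mesenchyme and 6 smooth muscle markers, on a linear scale relative to the 75th percentile of the array (y axes), in LSC GFP- and LSC GFP+ samples (x axes), with lines joining samples of the same replicate number. All 3 measures fell within each replicate number, and the fibroblast sum of LSC GFP- replicate 2, at 20.9, lay below that of LSC GFP+ replicate 3, at 24.9.

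Rspo1, Rspo2 and Rspo4 had signals between 3.93 and 15.4 scanner units on all arrays, and 0 of these 18 values were well above background. The dimmest probe that counted as well above background on an array had a signal of 15.8 to 25.6 units. For these ligands no level and no difference is given. They were not detectable above background here, in either population. Neither did any of the other receptors of the LGR family pass the filter, which were Fshr, Lhcgr, Tshr, Rxfp1 and Rxfp2, the receptors of glycoprotein hormones and of relaxin-like peptides.

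Rnf43, the E3 ligase first known as a brake on Wnt signaling in intestinal stem cells, had log2 signals of 1.69, 1.91 and 1.38 in the LSC GFP+ samples and of 0.89, 1.30 and 0.74 in the LSC GFP- samples. The populations came near each other, at LSC GFP+ replicate 3 and LSC GFP- replicate 2, but did not overlap. Within a replicate number Rnf43 was higher by 0.61 to 0.79, the narrowest range of the 7 probes tested. It was 1.60-fold higher (log2 difference 0.68, standard error 0.24, 95% confidence interval 0.13 to 1.23, unadjusted p = 0.0211 and adjusted p = 0.462 from limma). The difference did not pass the threshold without LSC GFP- replicate 1, at 0.64, LSC GFP+ replicate 2, at 0.56, or LSC GFP- replicate 3, at 0.56.

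Znrf3, the homologue of Rnf43 with the same role, had log2 signals of -0.48, -0.69 and -0.90 in the LSC GFP+ samples and of -1.29, -1.13 and -1.38 in the LSC GFP- samples. Here too every LSC GFP+ sample was higher, by 0.45 to 0.81 within a replicate number, and the lowest LSC GFP+ sample was replicate 3, as for Rnf43. Znrf3 was 1.49-fold higher (log2 difference 0.58, standard error 0.20, 95% confidence interval 0.11 to 1.04, unadjusted p = 0.0210 and adjusted p = 0.462 from limma). It was the smallest increase among the called genes and the least stable, since it did not pass the threshold without LSC GFP+ replicate 1, at 0.47, LSC GFP- replicate 1, at 0.57, LSC GFP+ replicate 2, at 0.58, or LSC GFP- replicate 3, at 0.52.

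Across the 7 probes tested, 5 lay wholly higher in LSC GFP+ samples and 1 wholly lower, where 6.61% and 5.65% of all probes tested did so. When 1 array was left out in turn, between 2 and 5 of the genes were called higher. The count was 2, Lgr5 and Lgr6, without LSC GFP- replicate 1. It was 3, Lgr4, Lgr5 and Lgr6, without LSC GFP+ replicate 2 or LSC GFP- replicate 3. Lgr6 stands here at its brighter probe. Rspo3 was called lower in all 6 of these fits.

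**Figure D3:**
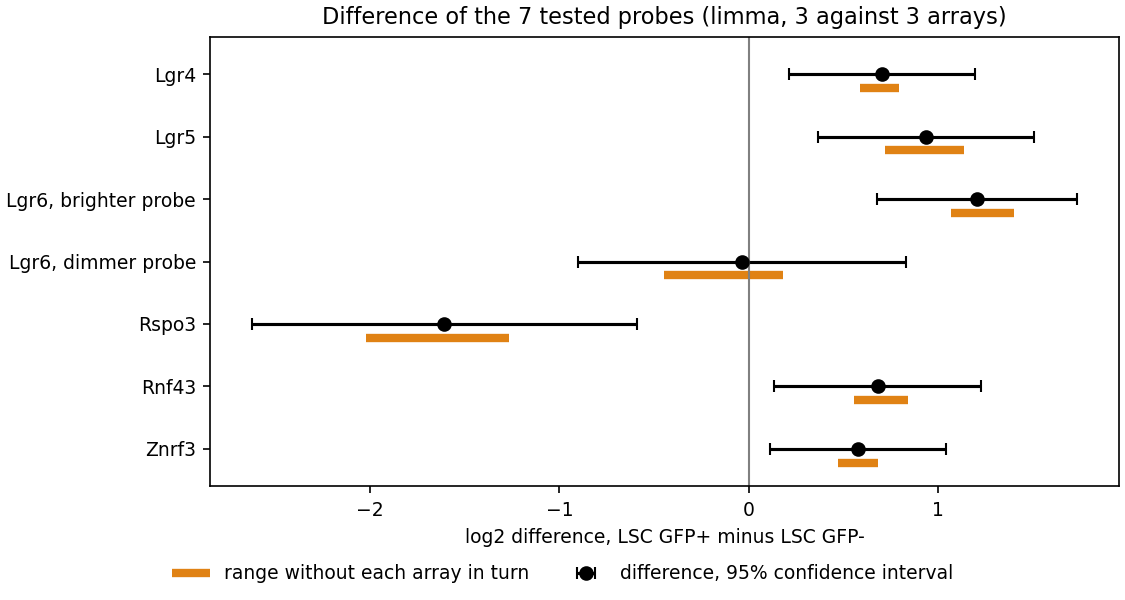
Log2 difference between LSC GFP+ and LSC GFP- samples (x axis) for the 7 tested probes (y axis), with points for the estimate, black bars for the 95% confidence interval from limma, and orange bars for the range of the estimate when each of the 6 arrays was left out. The intervals of 6 probes exclude 0 and that of the dimmer Lgr6 probe, from -0.90 to 0.83, spans it.

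The Frizzled receptors and their partners Lrp5 and Lrp6, the proteins on which the ligases and the Wnt ligands act, were all measured. Of these 12 genes 4 were called higher and 0 lower, and their median log2 difference was 0.35, beside -0.0068 over all genes tested. Fzd1, Fzd7, Fzd9 and Fzd10 rose by 0.70, 0.57, 1.78 and 0.81 on the log2 scale. Fzd9 was well above background on 2 of the 3 LSC GFP- arrays and so passed the filter only through LSC GFP+ cells, where it was high, and the dimmer probe of Fzd7, at 0.49, was not called. Lrp5 and Lrp6, the co-receptors, had differences of -0.038 and 0.040, close to 0 beside standard errors near 0.2. Fzd4 and Fzd3 had the lowest values of the list, -0.12 and -0.20.

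Of 8 further partners of the axis, 1 was called higher and 0 lower, with a median log2 difference of 0.13. Gpc3, a cell-surface heparan sulfate proteoglycan that binds Wnt and Frizzled proteins, rose by 1.11, with log2 signals of 3.25 ± 0.034 in LSC GFP+ and 2.13 ± 0.45 in LSC GFP- samples (SD, n = 3 each). The Dishevelled genes Dvl1, Dvl2 and Dvl3, whose products carry the Wnt signal on from Frizzled, differed by 0.10, 0.15 and 0.0041. Sdc4, a syndecan to which R-spondins can bind, differed by 0.46, Ndp, which encodes Norrin, by 0.21, Iqgap1 by -0.099 and Wls, the carrier of Wnt ligands to the cell surface, by -0.070, and none of these was called without the block.

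Of 17 target and feedback genes of Wnt/β-catenin signaling 16 were measured, since Dkk1 did not pass the filter, and 8 were called higher and 0 lower, with a median log2 difference of 0.54. At the brightest probe of each gene the largest increases were those of Lef1, a transcription factor of the pathway, at 1.58, and of Sp5, at 0.98. Tnfrsf19, Myc, Apcdd1, Ccnd1, Tcf7 and Cd44 rose by 0.92, 0.92, 0.83, 0.78, 0.69 and 0.61. The other 3 probes of Cd44 gave larger differences, 0.92, 1.48 and 1.05, and the other probes of Tnfrsf19 and Tcf7 gave 0.78 and 0.76, all called. Lef1 and Myc, like Fzd9, were named by the study from these arrays. For Lef1 the study also reported an increase in LSC GFP+ cells by quantitative RT-PCR. Axin2, a feedback inhibitor that many cell types raise under Wnt signaling, was at 1.18 ± 0.38 in LSC GFP+ and at 1.02 ± 0.093 in LSC GFP- samples on the log2 scale (SD, n = 3 each). Its difference of 0.16 was within the spread of the replicates, and its other probe gave 0.34, also not called. The feedback inhibitors Nkd1, Nkd2 and Notum, at 0.10, -0.31 and -0.16, were not called either, whereas the feedback ligases Rnf43 and Znrf3 were. Whether the feedback genes differ from each other in their change was not tested.

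Of 10 genes known with Lgr5 from intestinal stem cells, 2 were called higher and 1 lower, with a median log2 difference of 0.13. Smoc2, a secreted matricellular protein, rose by 1.33, from a log2 signal of 1.31 ± 0.39 in LSC GFP- to 2.65 ± 0.16 in LSC GFP+ samples (SD, n = 3 each), and Tnfrsf19 was the other. Prom1, which encodes CD133, fell by 0.53, and its other probe by 0.64, also called. Ascl2, the transcription factor that works with Lgr5 in the intestine, differed by 0.043 and Lrig1 by -0.0042. Olfm4, at -0.83, was well above background on 1 of the 3 LSC GFP+ arrays and was not called.

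Over the 4 lists together 44 genes were measured, 14 called higher and 1 lower, where 3.38% and 4.29% of all genes tested were. The count of 14 was 9 without LSC GFP+ replicate 2 and 13 when all 6 arrays had to be well above background, where Fzd9 was not tested. The 1 gene called lower, Prom1, was no longer called without LSC GFP+ replicate 1 or 2 or LSC GFP- replicate 2 or 3. With the replicate number as a block 18 genes were called higher, the others being Fzd5, Sdc4, Sox9 and Bmi1, at 0.46, 0.46, 0.47 and 0.39.

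**Figure D4:**
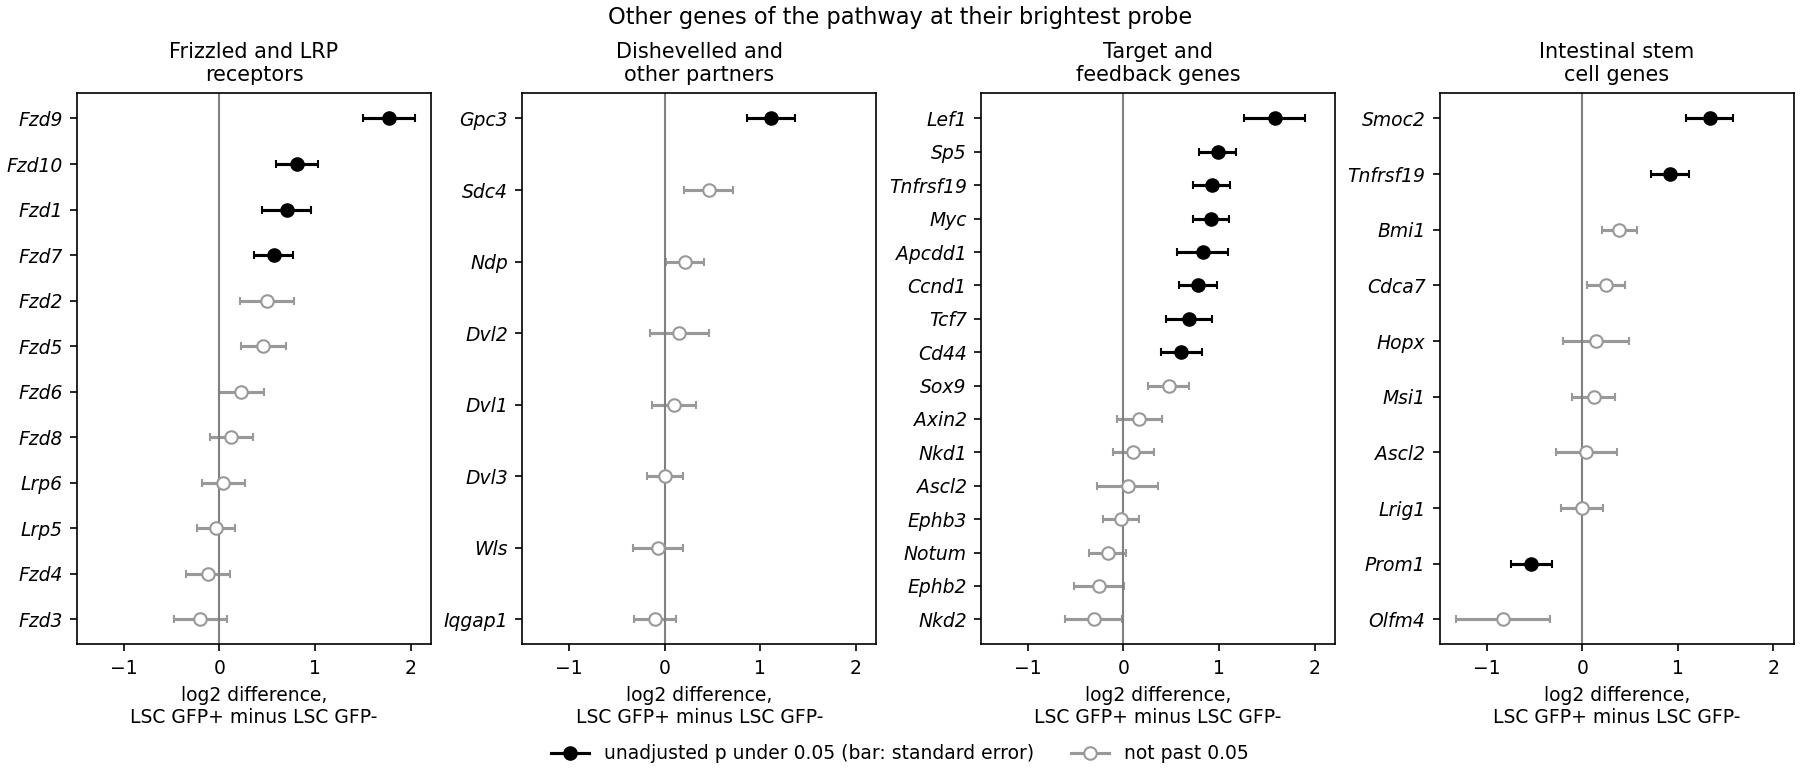
Log2 difference between LSC GFP+ and LSC GFP- samples with its standard error from limma (x axes) for the measured genes of 4 lists (y axes), at the brightest probe of each gene, in black where the unadjusted p was under 0.05. Of the 44 genes 14 were called higher, with Lef1 at 1.58 and Fzd9, which was well above background on 2 of the 3 LSC GFP- arrays, at 1.78, and Prom1, at -0.53, was called lower.

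The genes whose log2 signals ran most closely with those of the members over the 6 arrays were sought among 23780 other genes well above background on all of them. They are a description without a test, since all 6 arrays enter and any gene that parts the populations in a like way scores high. Lgr5 was followed most closely by Mmd, Nfil3 and Hey1, with Pearson's r of 0.995, 0.993 and 0.991. For Lgr6 at its brighter probe the closest were Adamts17 (r = 0.998), an intergenic transcript without a gene symbol and Fam20c (r = 0.991). Lgr4 ran with BC052040 (r = 0.992), Sash1 (r = 0.991) and a transcript without a symbol. The closest to Rnf43 were Bcl11b (r = 0.994), a transcript without a symbol and Taf5 (r = 0.987), and the closest to Znrf3 were Alms1, Adgra3 and Il17ra (r = 0.996, 0.990 and 0.989). No gene was shared between these lists.

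Promoter sequence, from 250 bases before to 50 bases after a transcription start, was at hand for 5 of the 9 genes and 6 starts in RefSeq's annotation of GRCm38.p6. Those of Lgr4 and Lgr6 are given, with CpG dinucleotides in capitals, as the only receptors with a start in the table.
Lgr4: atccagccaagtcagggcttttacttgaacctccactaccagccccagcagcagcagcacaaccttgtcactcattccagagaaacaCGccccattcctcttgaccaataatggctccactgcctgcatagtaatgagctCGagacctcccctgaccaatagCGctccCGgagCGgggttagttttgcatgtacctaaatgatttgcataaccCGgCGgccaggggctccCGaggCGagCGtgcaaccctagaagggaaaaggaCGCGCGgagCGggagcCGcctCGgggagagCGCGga
Lgr6: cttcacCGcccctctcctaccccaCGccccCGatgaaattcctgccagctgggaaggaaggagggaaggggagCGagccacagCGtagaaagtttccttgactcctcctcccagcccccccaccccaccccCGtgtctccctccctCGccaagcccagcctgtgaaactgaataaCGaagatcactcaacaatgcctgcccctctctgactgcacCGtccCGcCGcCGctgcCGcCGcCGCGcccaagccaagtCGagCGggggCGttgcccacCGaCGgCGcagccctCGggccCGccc
The first, chr2:109917397-109917696 on the plus strand, held 18 CpG and the second, chr1:135105227-135105526 on the minus strand, held 24, beside a median of 7 over all 32851 promoters. The starts of Rspo1 and Rspo4, which were at background, held more, 29 and 31, and those of Rnf43, which was called higher, held 10 and 3. The letters CTTTGAT, a form of the core that transcription factors of the TCF/LEF family recognize, were searched on both strands. Other forms of the core were not searched. They were in 3.73% of all promoters and in 0 of the 6 promoters of the members. Lgr5, Rspo2, Rspo3 and Znrf3 had no start in the table, and 6 promoters are too few to show a lack of the motif.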

How the data were processed

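The authors amplified the RNA, hybridized Cy3-labeled cDNA to SurePrint G3 Mouse GE arrays and read them with Feature Extraction 11.0.1.1 per the file headers (the labels name 10.7.3.1). The deposited intensity values are linear, background-subtracted, spatially detrended and not normalized between arrays, and dim spots hold a substitute value. The table of the whole series held the same intensity values rounded. Here log2 signals were scaled to the 75th percentile of each array, spots of a probe were averaged without those marked as outliers (123 to 154 per array), and LSC GFP+ was set against LSC GFP- with the two-sided moderated test of limma (3.58.1, under R 4.3.3), adjusted after Benjamini-Hochberg over all probes tested. A gene outside the 9 was named through its RefSeq accession where GRCm38.p6 held it (26582 probes) and stands at its brightest tested probe. The fit was tested on simulated data.

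Samples of the same replicate number deviated together from their group means (r = 0.43, 0.28 and 0.67 over probes). Between samples of different numbers r ranged from -0.55 to 0.22, the highest being LSC GFP+ replicate 1 with LSC GFP- replicate 2. The replicate numbers may thus pair the samples, which was not tested. These numbers come from the sample titles. The main fit has no block, after the unpaired Student's test of the methods, and the block was an alternative, beside other background corrections, scalings, filters and tests, the mean over probes, and each array left out. The genes named are the 9, the called genes of the lists, Axin2, the sorting markers and Inpp5d, and the 3 genes with the closest signals. Other genes of the lists were named after their values were seen. The luminal list is not reported here as a whole. The 9 genes and all lists were chosen with earlier results of these data known. The number of arrays, 3 in each group, limits the precision. The samples are called independent, but no label ties them to animals or litters, so p values measure the spread between these samples, which may in part be technical.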

Additional observations from a re-analysis of the deposited data

How the results depend on the processing

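The calls of Lgr4, Lgr5, Lgr6 at its brighter probe, Rnf43, Znrf3 and Rspo3 kept their direction and passed an unadjusted p of 0.05 under all alternatives of background, scaling, filter and test that gave them a value. No member passed 0.05 after adjustment under any of them, and adjusted p values at these 6 probes ranged from 0.0773 for Lgr6 to 0.764 for Znrf3. The dimmer Lgr6 probe, never called, changed sign to 0.0027 under normexp, 0.036 under quantile normalization and 0.032 under median scaling. Over the whole array 1250 probes were called higher and 1675 lower. Median scaling gave 1471 and 1299 and quantile normalization 1668 and 1606, and shifted the median of all probes to 0.065 and 0.012. With the replicate block, which changed no call of a member, the counts were 2494 and 2985, with 2862 probes called in both fits. After adjustment the count of 1 probe became 3 under quantile normalization and under median scaling, and 0 under normexp, the other filters, the methods' t-test, the intensity trend and the replicate block. The number of members called lower was 2 without a filter, when Rspo2 joined from below background, and 0 where all 6 arrays had to be well above background and Rspo3 was not tested. The count of 1 pathway gene called lower was 0 under median scaling, without a filter, and with the filter of at least 1 array.

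With each array left out in turn, the differences ranged from 0.59 to 0.80 for Lgr4, from 0.72 to 1.14 for Lgr5, from 1.07 to 1.40 and from -0.45 to 0.18 for the brighter and the dimmer Lgr6 probe, from -2.02 to -1.26 for Rspo3, from 0.56 to 0.84 for Rnf43 and from 0.47 to 0.68 for Znrf3. Members called higher ranged from 2 to 5 and lower stayed at 1. Pathway genes called higher ranged from 9 to 16 and lower from 0 to 2, probes called higher from 877 to 1378, lower from 1169 to 2795, the highest without LSC GFP+ replicate 1, and after adjustment from 0 to 3. Signals near background limit Rspo3, and signals below it leave Rspo1, Rspo2 and Rspo4 without a value.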
